A study of Rattus norvegicus with 6 samples.

Results

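Ribosome biogenesis genes encode the proteins that transcribe ribosomal RNA, modify and cut it in the nucleolus and assemble it into the subunits of the ribosome. RNA polymerase I (Pol I) makes the long precursor of the ribosomal RNAs. Small nucleolar ribonucleoproteins (snoRNPs) then guide its modification, and separate sets of factors build the small and the large subunit. The pathway is known to run high in growing cells and to be a target of the MYC transcription factors, which bind the sequence CACGTG.

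The genes described here are 40 ribosome biogenesis and Pol I genes, taken by gene symbol from the deposited count table. All 40 were among its 40456 genes, and all 40 passed the filter on low counts that left 14216 tested genes. Members were grouped by role: 6 in Pol I transcription, 4 in box C/D snoRNPs, 4 in box H/ACA snoRNPs, 10 in the small subunit, 11 in the large subunit and 5 nucleolar proteins with several tasks. The lowest count of a member in any library was 139, for Gar1.

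The libraries came from H9c2 (2-1), an established rat cardiomyoblast line labelled wild type and cardiomyocyte. All cells were differentiated for 5 days in medium with 1% serum and 1 µM retinoic acid and then received 25 nM of a locked nucleic acid gapmer for 24 h, and their polyadenylated RNA was sequenced. Gapmers are antisense oligonucleotides whose DNA core recruits RNase H to cut the target RNA. The control group (3 libraries) carried a negative control gapmer, and the gapmer of the knockdown group (3 libraries) targets Tug1, a long non-coding RNA. Both groups were thus transfected, no untransfected samples were used here and the knockdown rests on 1 gapmer. Both oligonucleotides are shown 5′ to 3′ because they are the only labelled difference between the groups.
Tug1 gapmer: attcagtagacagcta
negative control gapmer: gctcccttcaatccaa
The labels do not say whether the replicates were separate cultures, so p-values measure the spread between these libraries, which may be technical.

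Total counts were between 12978548 and 13544337 per library. Tug1 itself was at 54.7, 52.0 and 55.4 CPM in control replicates 1 to 3 and at 11.9, 11.2 and 12.5 CPM in knockdown replicates 1 to 3, so the libraries follow their labels. CPM are counts scaled to a common library total, here after TMM correction for composition. Of 13 cardiac muscle markers, 5 (Myh6, Myh7, Nppb, Ryr2 and Nkx2-5) had at most 3 counts in every library, while Tnnt2 was abundant. Only 4 of the 13 were tested, with 2 higher and 0 lower after knockdown. Tnnt2 rose by 0.235 on the log2 scale, and Myl2, with 5 to 25 counts per library, by 1.23. On unscaled library totals, the 13 summed to 343 to 374 CPM in controls and 409 to 463 CPM after knockdown. Of 12 skeletal muscle markers, 11 were tested, 8 of them higher and 1 lower after knockdown, against 30.8% and 30.9% of all tested genes. Their summed level was 1325 to 1351 CPM in controls and 1834 to 2012 CPM after knockdown, on unscaled library totals. Of 10 markers of other cell types, 7, among them Ptprc, Pecam1 and Epcam, had at most 3 counts in every library. Both tested markers of that class changed: Krt8, an epithelial keratin, fell by 0.61 on the log2 scale from a mean of 82.7 CPM in controls, and Cd68, a macrophage marker, rose by 1.09 from 3.60 CPM. The part of the shifts in muscle and other markers in the results below was not tested. In bulk RNA, fewer cells of a type and less RNA per cell cannot be told apart.

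Most of the ribosome biogenesis genes were lower after Tug1 knockdown. Of the 40 members, 27 fell and 4 rose at an adjusted p under 0.05, and 9 did not pass (quasi-likelihood test of edgeR, Benjamini-Hochberg adjustment over all tested genes). Of all tested genes 61.7% passed in either direction. The 67.5% that fell stand beside 30.9% of all tested genes, and the 10.0% that rose beside 30.8%. A call with a log2 fold change of -0.5 or below was reached by 16 members (40%) and by 15.1% of all tested genes. All 3 knockdown libraries lay below all 3 control libraries for 30 members, against 32.6% of tested genes, and above them for 5 members, against 33% of tested genes. The median log2 fold change was -0.45 for the members and 0.00 for all tested genes, with members ranging from -1.0 to 0.74.

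Library by library the shift was of similar size. The median member stood at -0.00, 0.01 and 0.00 in control replicates 1 to 3 and at -0.34, -0.47 and -0.49 in knockdown replicates 1 to 3, as log2 of CPM relative to the control mean of each gene. Summed over the 40 members, levels were 4100, 4109 and 4171 CPM in the controls and 3306, 3274 and 3274 CPM in the knockdown libraries. Without Npm1, the most abundant member, the sums were 3382, 3398 and 3434 CPM against 2818, 2795 and 2812 CPM. Each of the 3 knockdown libraries was low, and the difference did not come from 1 library.

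**Figure D1:**
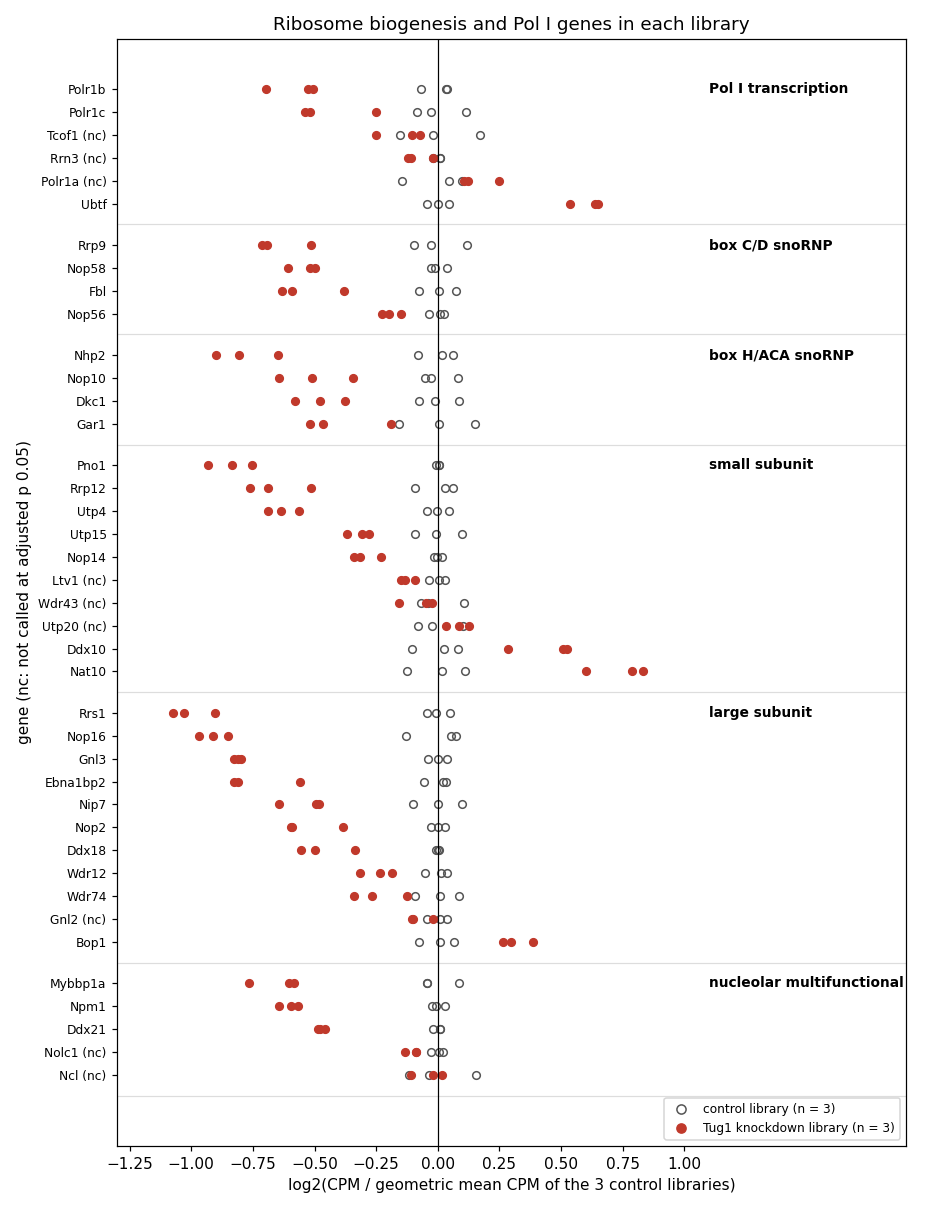
Level of each of the 40 genes in each library, as log2 of CPM over the geometric mean of the 3 control libraries, grouped by role and sorted by log2 fold change. Open circles are control libraries and filled circles Tug1 knockdown libraries. The box C/D and box H/ACA genes lie left of 0 in every knockdown library, while Ubtf, Nat10, Ddx10 and Bop1 lie to the right.

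Pol I transcription genes moved apart. Ubtf, the upstream binding factor that opens ribosomal DNA for transcription, was at 110, 107 and 104 CPM in controls and at 168, 155 and 166 CPM after knockdown. It rose 1.53-fold (log2 fold change 0.61, SE 0.0516, edgeR adjusted p 6.89e-10), and its groups were far apart. Polr1b, the second largest subunit of Pol I, was at 46.8, 50.4 and 50.2 CPM in controls and at 34.1, 34.6 and 30.3 CPM after knockdown. It fell to 67.2% of the control mean (log2 fold change -0.57, SE 0.0700, edgeR adjusted p 2.24e-07). In the RefSeq gene table Ubtf shares 8669 bases with a long non-coding RNA gene on the opposite strand. Polr1b shares 2414 bases with another on its own strand. The part of these overlaps in the counts was not tested. Polr1c, a subunit that Pol I shares with Pol III, fell by 0.43 on the log2 scale (SE 0.082), or by 0.28 with an offset that removes the trend of fold change over gene length.

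The other members of the Pol I group did not pass. Polr1a, the largest catalytic subunit, was at 38.7, 37.3 and 32.7 CPM in controls and at 38.9, 39.4 and 42.9 CPM after knockdown. Its groups touched without overlapping (log2 fold change 0.16, SE 0.0743, edgeR adjusted p 0.0738). Polr1a rose past the threshold when libraries were scaled by their totals (0.21, edgeR adjusted p 0.0192). Leaving out control replicate 1 also took it past (0.20, edgeR adjusted p 0.0467). With the gene length offset it did not pass (0.03, edgeR adjusted p 0.742). Rrn3, the factor that brings Pol I to its promoter, was at 107, 105 and 107 CPM in controls and at 97.9, 98.7 and 105 CPM after knockdown (log2 fold change -0.08, SE 0.0519, edgeR adjusted p 0.179). The treacle gene Tcof1, a nucleolar scaffold for Pol I, was at 50.9, 63.6 and 55.8 CPM in controls and at 53.7, 52.6 and 47.4 CPM after knockdown, with overlap (log2 fold change -0.15, SE 0.0737, edgeR adjusted p 0.0911). Without control replicate 1, its lowest control, Tcof1 passed as lower (-0.22, edgeR adjusted p 0.0206). With the gene length offset both Rrn3 (-0.13, edgeR adjusted p 0.0295) and Tcof1 (-0.18, edgeR adjusted p 0.0346) passed as lower. Per count of Polr1b there were 0.826, 0.740 and 0.651 counts of Polr1a in the controls and 1.14, 1.14 and 1.42 after knockdown. The balance of these 2 subunit transcripts thus differed in every library, but the ratio carries no length offset. Polr1a spans 64.0 kb and Polr1b 24.5 kb. This pair, like the other ratios given here, was chosen after its values were seen.

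All 4 box C/D genes fell, against 30.9% of all tested genes. These snoRNPs carry out 2′-O-methylation of ribosomal RNA. Their methyltransferase Fbl (fibrillarin) fell by 0.53 on the log2 scale (SE 0.0711) and the core protein Nop58 by 0.54 (SE 0.0526). Rrp9, specific to the U3 snoRNP, was at 38.2, 42.3 and 36.4 CPM in controls and at 24.1, 27.2 and 23.7 CPM after knockdown. Every knockdown library was well below the lowest control (log2 fold change -0.64, SE 0.0800, edgeR adjusted p 3.26e-07). The other core protein, Nop56, moved least, from 149, 143 and 148 CPM to 132, 128 and 125 CPM. Its fall (log2 fold change -0.19, SE 0.0490, edgeR adjusted p 0.00178) did not pass with the gene length offset (-0.10, edgeR adjusted p 0.0799). Nop56 and Nop58 form a pair in each snoRNP, and there were 1.16, 1.16 and 1.19 counts of Nop56 per count of Nop58 in the controls against 1.61, 1.46 and 1.41 after knockdown.

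Box H/ACA snoRNPs turn uridine into pseudouridine, and all 4 of their genes fell too, against 30.9% of all tested genes. Nhp2, an RNA-binding core protein, went from 24.9, 26.6 and 27.5 CPM to 15.1, 16.8 and 14.1 CPM, or 58.2% of the control mean (log2 fold change -0.78, SE 0.0900, edgeR adjusted p 9.39e-08). Nop10, a small core protein, was the most abundant of the 4 in counts, with 125, 114 and 116 CPM in controls against 92.9, 82.9 and 75.4 CPM (log2 fold change -0.50, SE 0.0644, edgeR adjusted p 5.70e-07; -0.26 with the gene length offset). Both had groups clearly apart. Dkc1, the pseudouridine synthase dyskerin, fell by 0.48 on the log2 scale (SE 0.0635). Gar1 was at 13.2, 14.8 and 16.4 CPM in controls and at 10.7, 10.3 and 12.9 CPM after knockdown. Its groups came closest (log2 fold change -0.39, SE 0.117, edgeR adjusted p 0.00600). With the gene length offset Gar1 was at -0.28 (edgeR adjusted p 0.0463) and Nhp2 at -0.61.

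Among the 10 small subunit genes, 5 fell (50%, against 30.9% of all tested genes), 2 rose (20%, against 30.8%) and 3 did not pass. Pno1, an assembly factor at the end of the small ribosomal RNA, fell furthest. It was at 105, 105 and 104 CPM in controls and at 62.1, 54.9 and 58.7 CPM after knockdown (log2 fold change -0.84, SE 0.0569, edgeR adjusted p 1.76e-11). Rrp12, needed for export of the subunits, fell by 0.65 (SE 0.0675) on the log2 scale, and the processome proteins Utp4, Utp15 and Nop14 by 0.63, 0.32 and 0.29. Utp4 shares 5640 bases of the RefSeq table's span with Chtf8 on the opposite strand, and whether the authors' counts used strand is not given in the sources used here.

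Nat10 and Ddx10 went the other way. Nat10, an acetyltransferase that modifies cytidines of the small ribosomal RNA, was at 24.1, 25.7 and 21.8 CPM in controls and at 36.2, 42.4 and 41.2 CPM after knockdown. It rose 1.67-fold, the most of the 40 genes in the fit reported here (log2 fold change 0.74, SE 0.0819, edgeR adjusted p 5.07e-08). The RNA helicase gene Ddx10 went from 17.3, 15.2 and 16.6 CPM to 23.5, 19.9 and 23.2 CPM, with groups apart (log2 fold change 0.44, SE 0.0942, edgeR adjusted p 0.000307). Ddx10 has the longest genomic span of the members, 155 kb, and with the length offset its log2 fold change was 0.17 and did not pass (edgeR adjusted p 0.112).

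Utp20, Wdr43 and Ltv1 did not pass. Utp20, a large scaffold of the processome, was at 47.2, 49.2 and 53.5 CPM in controls and at 51.0, 54.5 and 53.0 CPM after knockdown, with overlapping groups (log2 fold change 0.08, SE 0.0638, edgeR adjusted p 0.281), and its sign turned with the length offset (-0.08). Wdr43, another processome protein, was at 89.4, 87.6 and 98.8 CPM in controls and at 82.3, 90.3 and 88.7 CPM after knockdown (log2 fold change -0.08, SE 0.0587, edgeR adjusted p 0.256). With the length offset Wdr43 passed as lower (-0.14, edgeR adjusted p 0.0369). Ltv1, a late factor on the small subunit, was at 39.7, 39.1 and 37.9 CPM in controls and at 36.5, 35.1 and 35.5 CPM after knockdown. The Ltv1 groups did not overlap, but the log2 fold change of -0.12 (SE 0.0666) had an edgeR adjusted p of 0.112.

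The deepest falls of the 40, in Rrs1 and Nop16, were of large subunit genes. Of this group 9 of 11 fell (81.8%, against 30.9% of all tested genes), 1 rose (9.09%, against 30.8%) and 1 did not pass. The median log2 fold change was -0.52, against -0.54 for the box C/D genes. Rrs1, needed for recruiting the small RNA of the large subunit, was at 39.8, 40.8 and 42.5 CPM in controls and at 19.5, 20.1 and 21.9 CPM after knockdown. The level was 50.0% of the control mean (log2 fold change -1.0, SE 0.0759, edgeR adjusted p 1.07e-10), and 5.18% of all tested genes had a lower log2 fold change. Nop16 fell by 0.91 on the log2 scale (SE 0.0678) and Ebna1bp2 by 0.73 (SE 0.0714). With the length offset Rrs1 was at -0.78, Nop16 at -0.77, Ebna1bp2 at -0.58 and the small subunit gene Pno1 at -0.74. Gnl3 (nucleostemin), a nucleolar GTPase known from stem and cycling cells, had the highest counts of the group, with 147, 143 and 150 CPM in controls against 83.8, 84.4 and 82.8 CPM. Its libraries were tight within each group, and the log2 fold change of -0.81 (SE 0.0506) had the smallest edgeR adjusted p of the 40 genes, 4.25e-12.

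The remaining falls were smaller. Nip7, Nop2 and the helicase Ddx18 fell by 0.54, 0.52 and 0.46 on the log2 scale, and Nip7 by 0.34 with the length offset. Nop2 is a methyltransferase of the large ribosomal RNA. Wdr12 and Wdr74 fell by 0.24 each, and Wdr74 did not pass with the length offset (-0.10, edgeR adjusted p 0.214). Gnl2, a GTPase of the late nucleolar large subunit, was at 62.1, 58.8 and 60.9 CPM in controls and at 56.3, 56.4 and 59.7 CPM after knockdown, with overlap, and did not pass (log2 fold change -0.07, SE 0.0580, edgeR adjusted p 0.272).

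Bop1 rose while its partners fell. Bop1, Wdr12 and Pes1 form the PeBoW complex, which acts in the processing of large subunit RNA. Bop1 was at 75.2, 78.3 and 71.0 CPM in controls and at 89.8, 97.6 and 92.0 CPM after knockdown, with groups apart (log2 fold change 0.32, SE 0.0569, edgeR adjusted p 4.59e-05). Pes1, which is not among the 40, fell by 0.58 on the log2 scale (SE 0.0529). There were 1.44, 1.48 and 1.43 counts of Bop1 per count of Wdr12 in the controls and 2.05, 2.15 and 2.22 after knockdown. Per count of Pes1 there were 0.614, 0.650 and 0.626 counts of Bop1 in the controls and 1.13, 1.25 and 1.14 after knockdown. In the RefSeq table Bop1 spans the gene Scx and overlaps the end of Mroh1. Scx did not pass (2.34 CPM on average in controls, 2.00 CPM after knockdown, edgeR adjusted p 0.466). Mroh1 fell by 0.32 on the log2 scale. The part of these overlaps in the Bop1 counts was not tested.

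Of the 5 nucleolar proteins with several tasks, 3 fell (60%, against 30.9% of all tested genes) and 2 did not pass. Npm1 (nucleophosmin), an abundant nucleolar chaperone, was at 718, 711 and 736 CPM in controls and at 487, 478 and 462 CPM after knockdown. It fell to 65.9% of the control mean (log2 fold change -0.60, SE 0.0418, edgeR adjusted p 2.58e-11). Npm1 has processed copies in mammalian genomes, and how reads shared with them were counted is not given in the sources used here. Mybbp1a, a nucleolar protein that binds Pol I and p53, was at 203, 222 and 202 CPM in controls and at 123, 137 and 139 CPM after knockdown (log2 fold change -0.65, SE 0.0551, edgeR adjusted p 6.91e-10). The RNA helicase gene Ddx21 went from 128, 131 and 131 CPM to 92.9, 94.8 and 93.3 CPM, with little spread in either group (log2 fold change -0.47, SE 0.0498, edgeR adjusted p 2.33e-08).

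Ncl and Nolc1 did not pass. Ncl (nucleolin), a major nucleolar RNA-binding protein, was at 437, 414 and 499 CPM in controls and at 443, 416 and 454 CPM after knockdown, with overlapping groups (log2 fold change -0.04, SE 0.0554, edgeR adjusted p 0.543). Its sign turned with library totals (0.01), with the length offset (0.055) and without control replicate 3 (0.04), and it did not pass in any of these. Nolc1, a chaperone of snoRNPs, was at 216, 221 and 223 CPM in controls and at 207, 201 and 207 CPM after knockdown. Its groups did not overlap, and its log2 fold change of -0.10 (SE 0.0449) missed the threshold narrowly (edgeR adjusted p 0.0519). Nolc1 passed on adjusted p with DESeq2 size factors (0.0468), limma-voom (0.0473) and the replicate number as a block (0.0372). With the length offset it was at -0.03 and did not pass (edgeR adjusted p 0.616).

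Genomic span, a property the choice of genes did not use, moved with these values. The members were shorter than the tested genes as a whole, with a median span of 12.3 kb against 22.4 kb in the RefSeq gene table of GRCr8. Shorter genes were lower after knockdown across the table: the median log2 fold change was -0.20 for genes under 5 kb and 0.19 for genes over 40 kb. Across genes, Spearman's rho between span and log2 fold change was 0.56 for the 40 members and 0.27 for 13084 tested genes with a span. Genes are not independent replicates, and all points share the same 6 libraries. Under 5 kb, 8 of 8 members fell, with a median of -0.63, against 43.4% of all genes of that length. From 20 to 40 kb, 7 of 13 members fell, with a median of -0.24, against 31.9% of all genes. None of the 3 members over 40 kb, Polr1a, Utp20 and Ddx10, fell, against 20.3% of all genes that long. With the length offset, the members' median was -0.28, and 28 fell and 3 rose. All 13084 genes of that fit had a median of 0.00, and 8128 of them passed in either direction.

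**Figure D2:**
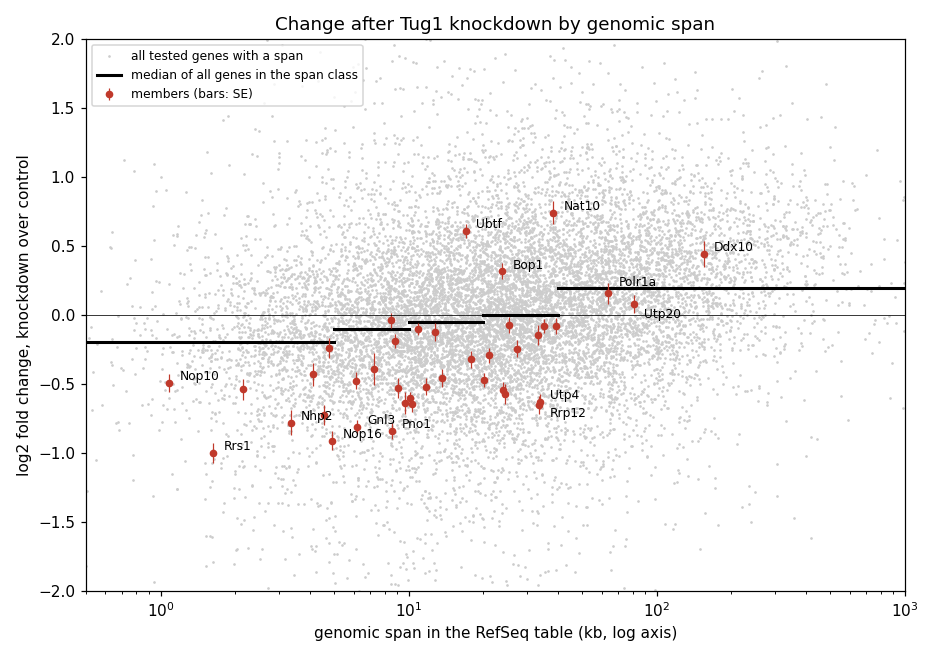
Log2 fold change (knockdown over control) against genomic span in kb on a log axis. Grey points are tested genes with a span, black lines the median of all genes in each of 5 span classes, and red points the 40 members with their SE; 226 genes outside the drawn range are not shown. Of the 40 members, 35 lie below the median of their span class, and Ubtf, Nat10, Ddx10, Bop1 and Ncl lie above it.

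The rest of the pathway was compared through lists of genes outside the 40. Other Pol I machinery, with subunits shared with other polymerases, had 10 of 17 tested genes lower (58.8%, against 30.9% of all tested genes) and 1 higher. The Pol I subunit gene Polr1g was at 34.1, 33.8 and 34.3 CPM in controls and at 15.4, 16.9 and 17.5 CPM after knockdown (log2 fold change -1.04, SE 0.0807, edgeR adjusted p 1.60e-10). Polr1f fell by 0.50 on the log2 scale, and Polr2e, a subunit common to the 3 nuclear polymerases, by 0.36. In this list the termination factor gene Ttf1 was the 1 that rose, by 0.57.

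Other small subunit factors had 21 of 47 tested genes lower and 8 higher, with a median log2 fold change of -0.14. Tbl3, Utp18 and Wdr3, all of the processome, fell by 1.02, 0.82 and 0.80 on the log2 scale. Other large subunit factors had 29 of 50 lower and 10 higher, with a median of -0.28. Npm3, a relative of Npm1, went from 53.9, 55.6 and 56.1 CPM to 22.8, 24.3 and 18.7 CPM, lower in this fit than any of the 40 members (log2 fold change -1.33, SE 0.0797, edgeR adjusted p 2.23e-12). Brix1 and Ftsj3 fell by 0.85 and 0.68. Genes of snoRNP assembly and ribosomal RNA trimming had 18 of 32 lower and 3 higher, with the exosome subunit Exosc6 at -0.84, the box C/D protein Snu13 at -0.55 and the exonuclease Xrn2 at -0.51. Together these 4 lists had 53.4% of 146 tested genes lower and 15.1% higher, with a median of -0.23. Of all tested genes 30.9% were lower and 30.8% higher.

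Ribosomal protein genes, whose products the pathway assembles, were lower in 70 of 75 tested cases and higher in 1, Rpsa. The share lower was 93.3%, against 30.9% of all tested genes. Their median log2 fold change was -0.30, a smaller size than the members' -0.45 in a narrower range. Rpl41, Rpl13a and Rplp0 fell by 0.60, 0.51 and 0.45. Many of these genes have processed copies, and their median span was 3.11 kb. With the length offset 44 were lower and 3 higher, and their median was -0.12, against 0.00 for all genes in that fit. Pol III machinery, which makes the small RNA of the large subunit and transfer RNAs, had a median of -0.03. Of its 22 genes listed here, 2 were lower (9.09%, against 30.9% of all tested genes) and 7 higher (31.8%, against 30.8%). The TFIIIC subunit genes Gtf3c3 and Gtf3c1 rose by 0.87 and 0.63, and Gtf3c5 fell by 1.30. Subunits that Pol III shares with Pol I were counted on the Pol I side and not in this list. Of these, Polr1c (-0.43), Polr1d (-0.25), Polr2e (-0.36), Polr2f (-0.17), Polr2h (-0.50) and Polr2l (-0.46) were lower. Polr2k (-0.09) did not pass.

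**Figure D3:**
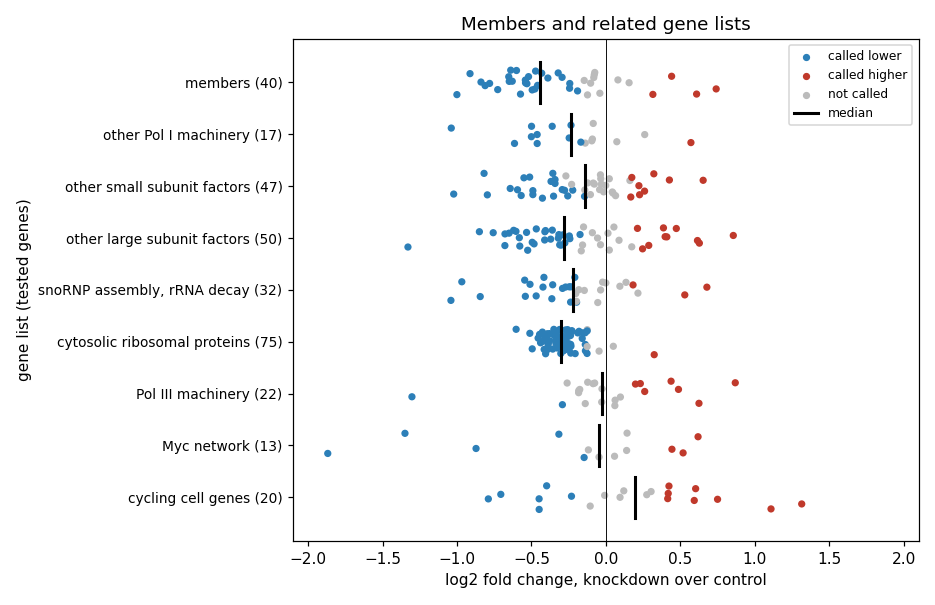
Log2 fold change (knockdown over control) of the 40 members and of 8 related gene lists, with the number of tested genes in brackets. Each point is a gene, coloured by its edgeR call, and the black bar is the median. The members' median of -0.45 lies furthest to the left of the 9 sets drawn, and the Pol III median lies at -0.03. Not drawn are the snoRNA host genes (3 tested, median -0.96). With the length offset the median was -0.28 for the members and -0.25 for the other large subunit factors. The Pol III set leaves out the subunits shared with Pol I.

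Ribosomal RNA itself is largely removed by poly-A selection. The precursor entry Rn45s had 7205, 9112 and 7729 counts in controls and 8371, 7512 and 8823 counts after knockdown, with overlapping groups (log2 fold change -0.02, SE 0.0676, edgeR adjusted p 0.817). The sign of Rn45s turned with library totals, with the length offset and without control replicate 2 or knockdown replicate 2. Rn28s had 70, 44 and 25 counts in controls and 246, 524 and 221 counts after knockdown, with groups apart and knockdown replicate 2 above its group. Rn28s rose (log2 fold change 2.77, SE 0.289, edgeR adjusted p 2.00e-08). These RNAs lack a regular tail and share repeated sequence, so neither entry gives the amount of ribosomal RNA. Rn18s, Rn5s and Rn5-8s had 0 counts in all 6 libraries.

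Small nucleolar RNAs are often carried in introns of ribosome biogenesis genes. By RefSeq annotation, 5 of the 40 genes held 19 snoRNA genes: Nop56 and Nop58 held 5 each, and Gnl3, Ncl and Wdr43 held 3 each. Of these hosts, Nop56, Nop58 and Gnl3 fell while Ncl and Wdr43 did not pass. Only 4 separate snoRNA host genes were listed. Of these 3 were tested and all 3 fell, against 30.9% of all tested genes. Gas5 went from 107, 107 and 104 CPM to 72.7, 80.9 and 67.5 CPM (log2 fold change -0.52, SE 0.0606, edgeR adjusted p 1.00e-07). Snhg4, with 42 to 103 counts per library, was at -0.96 and Dancr at -2.46.

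The MYC family and its partners moved as follows. Myc was at 56.9, 51.2 and 49.4 CPM in controls and at 26.2, 30.0 and 29.8 CPM after knockdown, or 54.6% of the control mean (log2 fold change -0.87, SE 0.0749, edgeR adjusted p 8.58e-10). Mycl went from 14.2, 14.4 and 10.6 CPM to 3.62, 4.29 and 2.79 CPM (log2 fold change -1.87, SE 0.164, edgeR adjusted p 1.27e-09). In both genes all knockdown libraries were far below the controls. Mxd4, a repressor that competes with MYC for its partner MAX, was at 112, 114 and 108 CPM in controls and at 169, 171 and 172 CPM after knockdown (log2 fold change 0.62, SE 0.0487, edgeR adjusted p 1.97e-10). Mycn at -1.35 and Max at 0.52, named after their values were seen, also passed. In the same list Mga (-0.32) and Mlx (-0.15) were lower and Mlxip (0.44) was higher. The repressor genes Mxd1, Mxd3, Mxi1 and Mnt did not pass, nor did Zbtb17. Of 13 tested genes of this network, 5 were lower (38.5%, against 30.9% of all tested genes) and 3 higher (23.1%, against 30.8%). The part of these changes in those of the 40 genes was not tested.

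**Figure D4:**
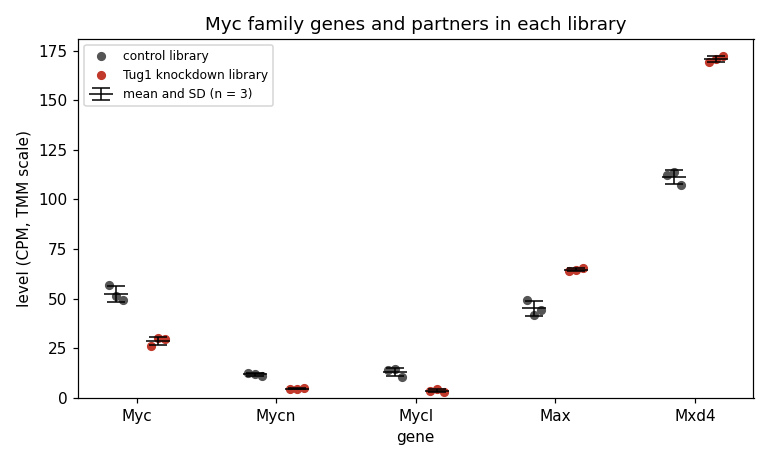
Level in CPM (TMM scale) of 5 of the 13 tested genes of the Myc network in each library, with mean and SD of the 3 libraries of each group. Myc, Mycn and Mycl are lower in all 3 knockdown libraries than in any control, and Max and Mxd4 are higher.

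As a planned description of the members, the letters CACGTG were searched around the gene start (RefSeq, GRCr8). The windows ran from 250 bases before to 50 bases after the start. The motif reads the same on both strands. Windows were found for 36 of the 40 genes, and not for Wdr43, Bop1, Rrs1 and Gnl2. CACGTG was in 13 of the 36 (36.1%), against 6.42% of all 33469 windows and 9.31% of the 10529 windows of tested genes. In the part before the start alone it was in 7 of 36 (19.4%), against 5.59% of all windows and 8.07% of those of tested genes. In the whole window, members of every kind held the motif. It was in 10 of 26 windows of members that fell, 1 of 3 that rose and 2 of 7 that did not pass. Before the start alone it was in 5 of 26, 0 of 3 and 2 of 7. Over all tested genes it was in 10.6% of whole windows of genes that fell and 8.59% of those that rose. A match describes letters, not binding, and the part of the motif in the members' changes was not tested. Shown are stretches with a match from members that fell, rose or did not pass, written along the gene's strand with the motif in capitals. Positions count back from -1, the base before the gene start, and on from 1, its first base.
Gnl3 (fell; bases -100 to -1; chr16:6219783-6219882, minus strand): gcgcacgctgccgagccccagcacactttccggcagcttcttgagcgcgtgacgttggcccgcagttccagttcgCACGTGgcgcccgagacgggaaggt
Mybbp1a (fell; bases -180 to -81; chr10:57555278-57555377, plus strand): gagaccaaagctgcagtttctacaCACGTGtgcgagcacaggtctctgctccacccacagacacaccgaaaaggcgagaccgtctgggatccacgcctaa
Utp20 (did not pass; bases -150 to -51; chr7:25102900-25102999, minus strand): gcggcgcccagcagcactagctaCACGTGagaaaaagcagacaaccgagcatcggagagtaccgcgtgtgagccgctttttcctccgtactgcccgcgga
Ltv1 (did not pass; bases -100 to -1; chr1:9398558-9398657, minus strand): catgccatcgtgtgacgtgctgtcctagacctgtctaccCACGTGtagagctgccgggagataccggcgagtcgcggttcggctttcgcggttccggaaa
Pno1 (fell; bases -12 to 18; chr14:95819886-95819915, minus strand): cggcacaacctcgCACGTGttccagtggtt
Nat10 (rose; bases -2 to 28; chr3:110604802-110604831, minus strand): ttcagcgctagccCACGTGctgccacttga
The match begins 25 bases before the start in Gnl3, 61 before in Ltv1 and at base -127 in Utp20, and at base 2 in Pno1 and base 12 in Nat10. Mybbp1a has a match from base -156 and another that begins at base -1. Windows without a match included those of Nop16 and Nhp2, which fell, and of Ubtf and Ddx10, which rose.

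Genes of cycling cells, which are known to need ribosomes, had 8 of 20 tested genes higher (40%, against 30.8% of all tested genes) and 6 lower (30%, against 30.9%). The other 6 did not pass, and the median log2 fold change was 0.20. The mitotic genes Top2a and Plk1 rose by 1.32 and 1.11, and the nucleotide synthesis gene Tyms fell by 0.79. The list was split: Mcm2, Mcm6, Mcm7, Ccne1 and Ccne2, genes of DNA replication and its onset, were also lower. Also higher were Mki67, the mitotic genes Ccnb1, Ccnb2 and Cdk1, and the replication genes Mcm5 and Rrm2. The summed level of the 20 genes was 496 to 501 CPM in controls and 449 to 484 CPM after knockdown. The part of cycling cells in the members' change was not tested.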

How the data were processed

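The authors deposited raw whole-number counts per gene for each of 6 libraries, unscaled and not pooled, as the values themselves show. FastQC 0.11.7, fastp 0.14.1 and STAR 2.5 are named, per the submitters' processing notes; counting tool, strand setting, build and treatment of shared reads are not given in the sources used here. Per the labels' protocols, stranded poly-A libraries were made from 500 ng of RNA with integrity numbers of at least 9.

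The tests ran under R 4.3.3 in edgeR 4.0.16, with its expression filter (minimum count 10, total 15), TMM factors of 0.979 to 1.02, quasi-likelihood test without a block (prior count 0.125, two-sided), Benjamini-Hochberg adjustment over 14216 genes and a call at 0.05. SE is the log2 fold change over the root of the F statistic. At this depth 1 CPM is 13.0 to 13.5 counts. The fit was tested on simulated data of 13834 genes, with 100 changed by 0.5 and 100 by 1 on the log2 scale. It recovered 97% of the former and 100% of the latter. Of its calls 7.94% were false at the threshold of 0.05. Far fewer genes changed there than were called in these data, so the simulation does not give the error at this share.

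Members and lists were chosen with earlier results of these data known. All members are named. Values in every library are given for members not called and, per role, for the highest and lowest called and the most abundant. Other lists name up to 3 called genes by p, and Myc and the rRNA entries regardless. Further genes of these lists were named after their values were seen. Spans matched by symbol or synonym for 13084 tested genes (92.0%). The comparison of levels between genes planned per coding length and the planned description of the proteins were not made, as no protein sequences were used here. Alternatives used DESeq2 1.42.0, limma 3.58.1, other scalings and filters, a block, a length offset (lowess span 0.3) and each library left out.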

Additional observations from a re-analysis of the deposited data

How the results depend on the processing

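All alternatives were planned and run. The number of members that fell ran from 27 to 28 and of those that rose from 3 to 5 over all alternatives, and the count of all changed genes from 7353 to 8987. Leaving out 1 library at a time, 31 to 33 members and 8128 to 8410 genes passed, and the members' median log2 fold change ran from -0.473 to -0.399. The length offset moved that median to -0.282, and to -0.281 with the replicate block; it tested 13084 genes. It also took the ribosomal protein count to 47, with 44 lower and 3 higher, and Pol III genes called lower to 5, with and without the block. Library totals gave 2 ribosomal protein genes higher. Before the gene start, 7 member windows held CACGTG.

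Over 640 combinations of a member and an alternative, 616 kept direction and call, 6 lost the call, 12 gained it and 6 turned sign. The 6 losses were Nop56, Ddx10 and Wdr74 under the length offset with and without the block. Sign turned for Utp20 (-0.0771 with the length offset, -0.0765 with the block), for Ncl (0.0125 with library totals, 0.0550 and 0.0590 with the offset without and with the block, -0.1 to 0.0425 over libraries left out, the 0.0425 without control replicate 3) and, outside the members, for Rn45s (0.0338 with library totals, 0.0769 and 0.0787 with the offset without and with the block, -0.0955 to 0.0835 over libraries left out, with 0.0835 without control replicate 2 and 0.0447 without knockdown replicate 2). None of these was called in any of the fits named. For all of these, the cause was not tested.

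Correlations of same-numbered libraries across genes, after subtracting group means, were -0.00531, 0.0298 and 0.0270. Between differently numbered libraries they ran from -0.0323 to 0.00586. Values this small do not tell whether libraries with the same number shared a batch. With the replicate number as a block, 32 members passed, Nolc1 being the addition. Depth was not limiting for the members, whose lowest count was 139.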
